A study of Homo sapiens with 15 samples.

Results

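Sensors of lysosome damage and the ESCRT machinery that repairs it were followed through 10 genes across the 5 groups of the study. The genes were chosen by symbol, and they are the galectins LGALS1, LGALS3 and LGALS8, the adaptor PDCD6IP (ALIX), TSG101 of ESCRT-I, the ESCRT-III subunits CHMP2A, CHMP3 and CHMP4B, and the ATPases VPS4A and VPS4B. They make up 10 of the 60107 genes listed, and all 10 passed the filter on low counts together with 10495 genes in all. RNA was sequenced from MIA PaCa-2 cells, an established human pancreatic carcinoma line, with 3 libraries in each group. The groups were vehicle, Lys05, BAQ12, BAQ13 and BAQ12O, at 5 µM for 24 h in the 4 treated groups. Lys05 is a bisaminoquinoline inhibitor of autophagy, and BAQ12 and BAQ13 are described by the study as hybrids of Lys05 with a lysosomotropic detergent that assemble into nanoparticles. BAQ12O is named in the labels only. The study speaks in general of biological replicates or separate nanoparticle samples, without saying for these libraries whether the 3 of a group came from separate cultures, so the p-values measure the spread between these libraries, which may be technical.

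Galectins are cytosolic lectins that bind sugars on the inner face of the lysosomal membrane, and they gather on a lysosome once its membrane is torn and those sugars are exposed. Smaller lesions are sealed by ESCRT proteins. ALIX and TSG101 recruit ESCRT-III subunits, which polymerise at the lesion and constrict it, and the VPS4 ATPases then take the polymer apart. Lysosomes that cannot be resealed are marked with ubiquitin and removed by selective autophagy, which is called lysophagy. Recruitment of these proteins can occur without a change in their mRNA, and only mRNA was measured here.

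The promoter windows of RefSeq (GRCh38.p14), which run from 250 bases before to 50 bases after an annotated start, held 8 of the 10 genes, and LGALS1 and CHMP3 were not among them. They were searched on both strands for the E-box core CACGTG and for TCACGTGA, which contains it and forms the centre of the CLEAR element known from lysosomal genes. CACGTG was in 7.26% of all 35116 windows and TCACGTGA in 0.98%. PDCD6IP was the single gene among the 8 with either motif. The 30 bases around its match are shown because no other window of these genes held such letters. The stretch lies on the + strand at chr3:33798513-33798542, in bases that GENCODE release 29 annotates as exonic. The capitals mark TCACGTGA, which begins 106 bases before the start.
PDCD6IP: ccgcgacacctTCACGTGAccgcggacagc
A match of letters is a description of the sequence only. The mRNA level of PDCD6IP is given below with the others.

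Levels are given as normalised read counts, in which the reads of a library are scaled by its size factor. Reads on genes numbered 1586566 to 2500551 per library (median 2230594). The floor of 3 reads, which a marker had to exceed to count as expressed, corresponded to 2.49 to 4.14 normalised reads. Each of the 10 genes was far above that in every library, from 51 reads for VPS4A in its shallowest case to 902 reads for LGALS1. BAQ12 replicate 3 stood apart from the other libraries. It held the highest or lowest value of the 15 for 43.4% of the genes tested, against at most 16.2% in any other library, and for 4 of the 10 genes described here. By the chi-square per degree of freedom between 2 libraries of a group, BAQ13 replicate 1 differed next most, with 3.43 and 6.29 against the other BAQ13 libraries. By the share of highest or lowest values it did not. That share was 14.5%, beside 16.2% in BAQ12O replicate 3 and 15.3% in BAQ13 replicate 3. Markers were read against the labelled cell type. KRT8, KRT18 and KRT19 of the epithelial list and VIM and ZEB1 of the mesenchymal list were expressed, and CDH1 exceeded 3 reads in some library. EPCAM and KRT7 of the epithelial list and CDH2 and FN1 of the mesenchymal list had at most 3 reads in every library. All 4 acinar markers were at 0 in every library. The summed level of the 6 epithelial markers was 1715 to 1795 in the vehicle libraries, 1388 to 1574 with Lys05, 1381 to 1556 with BAQ12, 1362 to 1380 with BAQ13 and 1364 to 1487 with BAQ12O. KRT8 was called lower with BAQ12, BAQ13 and BAQ12O (log2 fold changes -0.58, -0.85 and -0.60, adjusted p-values 0.0061, 3.8e-05 and 0.0044, limma). KRT18 was called lower with BAQ13 and BAQ12O (log2 fold changes -0.50 and -0.43, adjusted p-values 0.0026 and 0.025, limma). KRT18 was not called with Lys05 or BAQ12, but its libraries were below vehicle without overlap with every compound. KRT19 was 539 with BAQ13 and 496 with vehicle and was not called. Of the other lists, the leukocyte markers summed to at most 5.72, CDH5 was the endothelial marker and COL1A2 the fibroblast marker above the floor, and the summed fibroblast list was 214 to 253 with vehicle, 185 to 197 with Lys05, 149 to 156 with BAQ12, 148 to 170 with BAQ13 and 180 to 222 with BAQ12O. COL1A2 was called lower with BAQ12 and BAQ13 (log2 fold changes -0.56 and -0.54, adjusted p-values 0.011 and 0.0043, limma). CDH5 was 72.4 with BAQ12O and 54.5 with vehicle without overlap, and was not called (adjusted p-value 0.5). The part of these markers in the values below was not tested, and in bulk RNA fewer cells of a type and less RNA per cell cannot be told apart.

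None of the 10 genes passed an adjusted p-value of 0.05 against vehicle with any compound (limma on log2(value + 1), adjusted over all genes tested). The background was 0.238% of the genes tested with Lys05, 0.981% with BAQ12, 5.77% with BAQ13 and 1.48% with BAQ12O. At an unadjusted p under 0.05 the count was 0 with Lys05, 2 with BAQ12, 3 with BAQ13 and 0 with BAQ12O, where 4.98%, 11.8%, 19.4% and 12.8% of the genes tested passed. edgeR's quasi-likelihood test and DESeq2 on the recovered reads also called 0 of the 10 with each compound. Without BAQ12 replicate 3 the count was 1 with BAQ13 (LGALS8), beside 13.5% of the genes tested, and 0 with Lys05, BAQ12 and BAQ12O, beside 0.479%, 1.29% and 4.94%. When libraries were weighted by their spread (array weights), it was 2 with BAQ12 and 5 with BAQ13, beside 5.96% and 22.2% of the genes tested. The differences that the data allow were small. All 40 of the 95% intervals lay within 2-fold of vehicle, and 37 lay within 1.5-fold, which held for 52.1%, 44.2%, 40.8% and 45.2% of the genes tested with Lys05, BAQ12, BAQ13 and BAQ12O. The widest bounds were 0.702-fold and 1.57-fold. Among the genes tested, the share with an interval within 2-fold was 86.6% with Lys05, 81.3% with BAQ12, 79.4% with BAQ13 and 82.5% with BAQ12O. The standard errors of the 10 genes had a median of 0.12 on the log2 scale, beside 0.20 for all genes tested. The shares of all genes given here and below for intervals and for overlap are therefore not a like-for-like background.

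**Figure D1:**
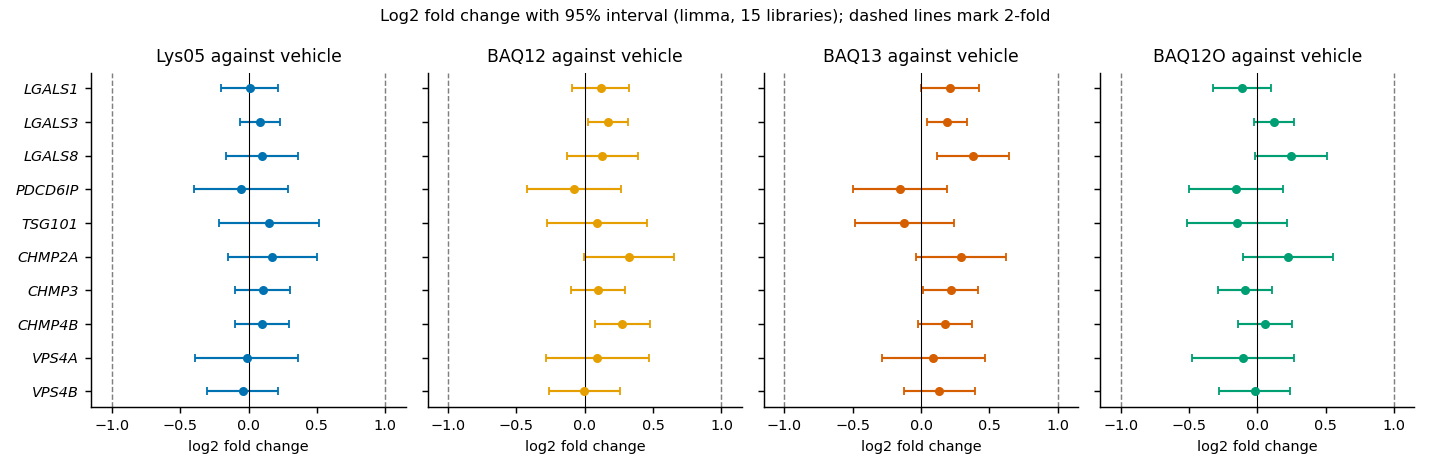
Log2 fold change against vehicle (x axis) of the 10 genes, with 1 panel per compound; points are limma estimates from 15 libraries, bars are 95% intervals and dashed lines mark 2-fold. All 40 intervals lie between the dashed lines, and the estimates run from -0.16 to 0.38.

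The median log2 fold change of the 10 genes was 0.09 with Lys05, 0.11 with BAQ12, 0.18 with BAQ13 and -0.05 with BAQ12O, beside 0.00 for all genes tested in each case. Of the 10 estimates, 7 were above 0 with Lys05, 8 with BAQ12, 8 with BAQ13 and 4 with BAQ12O. With BAQ13 the libraries of 6 genes lay wholly above those of vehicle, where 14.5% of the genes tested did so. With Lys05, BAQ12 and BAQ12O this held for 2 genes each, beside 8.24%, 7.75% and 12.5%. The 4 comparisons share the vehicle libraries, so these counts are not independent of each other.

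**Figure D2:**
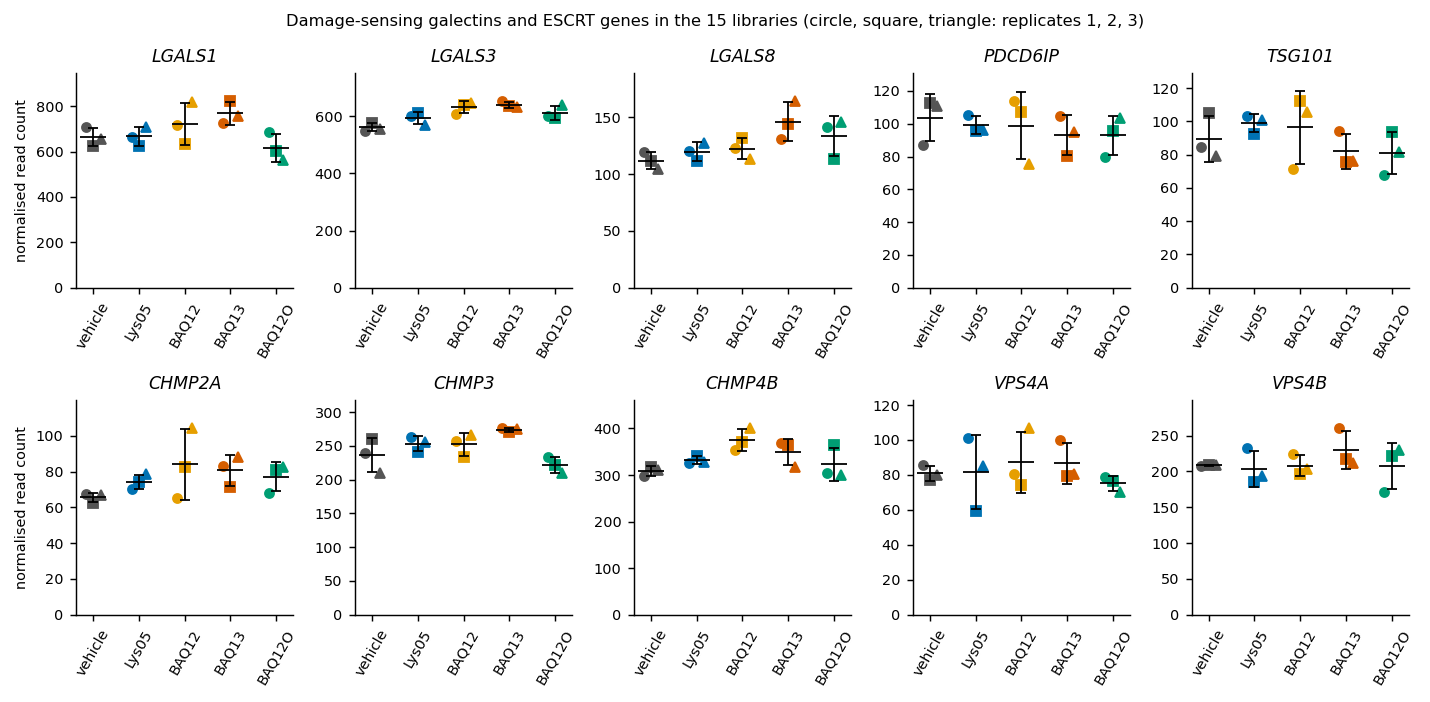
Normalised read count (y axis, from 0) of the 10 genes in the 15 libraries by group; circles, squares and triangles are replicates 1, 2 and 3, and the bars give the mean ± SD of 3 libraries. The LGALS8 and LGALS3 libraries of BAQ13 sit above all vehicle libraries, and BAQ12 replicate 3 is the highest point for CHMP2A, CHMP4B and VPS4A and the lowest for PDCD6IP.

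LGALS8 detects torn membranes and recruits an autophagy receptor to them. Its gene lies at chr1:236518000-236552981 on the + strand (GRCh38). Its normalised read counts were 120, 112 and 105 in the vehicle libraries, 120, 111 and 128 with Lys05, 123, 132 and 113 with BAQ12, 131, 144 and 164 with BAQ13, and 141, 113 and 146 with BAQ12O. The BAQ13 libraries were all above the vehicle libraries, while the other 3 treated groups overlapped with vehicle. The level was 146 ± 16.9 with BAQ13 and 112 ± 7.46 with vehicle (SD, n = 3 each), a log2 fold change of 0.38 with a standard error of 0.12. This was the largest difference from vehicle among the 10 genes, with an adjusted p-value of 0.086 (limma), and it was not called. The call turned on 1 library. Without BAQ12 replicate 3, which enters through the shared spread, the same fold change of LGALS8 had an adjusted p-value of 0.03 and 13.5% of the genes tested were called. HEATR1, which runs in the opposite direction and shares 21.6% of the exonic bases of LGALS8, was 275 ± 13.6 with vehicle and 220 ± 20.5 with BAQ13 (log2 fold change -0.32, adjusted p-value 0.049). The kit and the use of strand in counting are not settled by the sources, so reads of this shared stretch cannot be assigned with certainty.

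LGALS3, the galectin most used as a reporter of ruptured lysosomes, lies at chr14:55124110-55145413 on the + strand. Its normalised read counts were 550, 578 and 557 with vehicle, 603, 611 and 570 with Lys05, 609, 641 and 647 with BAQ12, 653, 635 and 632 with BAQ13, and 600, 596 and 638 with BAQ12O. All libraries of the 3 BAQ groups were above all vehicle libraries, and Lys05 overlapped with vehicle. The log2 fold change was 0.19 ± 0.07 (SE) with BAQ13, 0.17 ± 0.07 with BAQ12 and 0.12 ± 0.07 with BAQ12O, with adjusted p-values of 0.13, 0.35 and 0.49 (limma). The upper bound of the interval with BAQ13 was 0.33, or 1.26-fold.

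LGALS1, a small galectin that is abundant in mesenchymal cells, lies at chr22:37675608-37679806 on the + strand. Its normalised read counts were 708, 626 and 657 with vehicle, 665, 626 and 710 with Lys05, 719, 632 and 816 with BAQ12, 727, 822 and 755 with BAQ13, and 686, 602 and 562 with BAQ12O. BAQ13 was above vehicle without overlap, and the other treated groups overlapped with it. The log2 fold change with BAQ13 was 0.21 ± 0.10 (SE), with an adjusted p-value of 0.26 (limma). BAQ12O stood 0.11 below vehicle on the log2 scale, with an adjusted p-value of 0.7. Without BAQ12 replicate 3 and BAQ13 replicate 1, an alternative chosen after seeing the data, LGALS1 was called with BAQ13 (0.25, adjusted p-value 0.027), as was LGALS8 (0.46, adjusted p-value 0.0081), where 11.8% of the genes tested were called.

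PDCD6IP and TSG101, which bring ESCRT-III to the membrane, overlapped with vehicle in every treated group. PDCD6IP (chr3:33798352-33869707, + strand) had 87.2, 113 and 111 normalised reads with vehicle, 105, 95.8 and 96.1 with Lys05, 114, 107 and 75.4 with BAQ12, 105, 80.2 and 94.7 with BAQ13, and 79.8, 95.3 and 103 with BAQ12O. The estimates were all below 0, from -0.06 with Lys05 to -0.16 with BAQ12O, with a standard error of 0.16. The direction of BAQ12 rested on replicate 3, as its estimate was -0.08 with this library and 0.10 without it.

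TSG101 (chr11:18468336-18527232, - strand) had 84.7, 105 and 78.9 normalised reads with vehicle, 103, 92.7 and 101 with Lys05, 71.5, 112 and 106 with BAQ12, 94.2, 75.6 and 76.3 with BAQ13, and 67.9, 93.4 and 81.3 with BAQ12O. Each treated group overlapped with vehicle, whose own libraries spanned 78.9 to 105. The log2 fold changes were 0.15 with Lys05, 0.09 with BAQ12, -0.12 with BAQ13 and -0.15 with BAQ12O (SE 0.17), and the smallest of their adjusted p-values was 0.77 (limma).

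The 3 ESCRT-III genes had estimates above 0 with Lys05, BAQ12 and BAQ13, and none was called. CHMP4B, the main polymer-forming subunit, lies at chr20:33811304-33854366 on the + strand. Its normalised read counts were 298, 318 and 311 with vehicle, 326, 342 and 328 with Lys05, 353, 371 and 401 with BAQ12, 369, 364 and 318 with BAQ13, and 305, 364 and 299 with BAQ12O. The Lys05 and BAQ12 libraries were all above vehicle, and the BAQ13 and BAQ12O libraries overlapped with it. The log2 fold change with BAQ12 was 0.28 ± 0.09 (SE), with an adjusted p-value of 0.25 (limma), and it was 0.23 without BAQ12 replicate 3.

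CHMP2A and CHMP3 cap and remodel the CHMP4B polymer. CHMP2A (chr19:58551566-58555124, - strand) had 67.2, 62.5 and 67.0 normalised reads with vehicle, 70.3, 73.9 and 78.4 with Lys05, 65.1, 82.5 and 104 with BAQ12, 83.1, 71.1 and 88.0 with BAQ13, and 67.9, 81.0 and 82.7 with BAQ12O. Lys05, BAQ13 and BAQ12O were above vehicle without overlap, whereas BAQ12 overlapped with it and had the widest spread. The estimate with BAQ12 was 0.33 ± 0.16 (SE), with an adjusted p-value of 0.43 (limma), and it was 0.16 without its replicate 3. With Lys05, BAQ13 and BAQ12O the log2 fold changes of CHMP2A were 0.17, 0.29 and 0.23, with adjusted p-values of 1, 0.33 and 0.58.

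CHMP3 (chr2:86503431-86563479, - strand) had 239, 260 and 210 normalised reads with vehicle, 263, 241 and 256 with Lys05, 258, 233 and 266 with BAQ12, 276, 271 and 275 with BAQ13, and 233, 222 and 210 with BAQ12O. The BAQ13 libraries were close together and above all others, and the BAQ12O libraries overlapped with 1 vehicle library and lay below the other two. The log2 fold change was 0.22 ± 0.09 (SE) with BAQ13, with an adjusted p-value of 0.21 (limma), and -0.09 with BAQ12O, with an adjusted p-value of 0.75. The readthrough gene RNF103-CHMP3, which runs on the same strand and shares 10.8% of the exonic bases of CHMP3, was at 0 in all libraries. How reads on shared exons were assigned is not settled by the sources, so this value does not show whether RNF103-CHMP3 is transcribed.

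The VPS4 ATPases had estimates of at most 0.13 against vehicle in either direction. VPS4B (chr18:63389190-63422483, - strand) had 208, 209 and 209 normalised reads with vehicle, 232, 185 and 193 with Lys05, 225, 196 and 203 with BAQ12, 260, 217 and 212 with BAQ13, and 171, 221 and 230 with BAQ12O. Only the BAQ13 libraries did not overlap with vehicle, by a narrow margin. The vehicle libraries spanned 208 to 209, and the lowest BAQ13 library was 212. The estimates ran from -0.04 with Lys05 to 0.13 with BAQ13 (SE 0.12), and the smallest adjusted p-value was 0.62 (limma).

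VPS4A (chr16:69311356-69326939, + strand) had 85.5, 77.0 and 79.9 normalised reads with vehicle, 101, 59.4 and 84.9 with Lys05, 80.7, 74.0 and 107 with BAQ12, 99.8, 79.3 and 80.5 with BAQ13, and 78.7, 76.3 and 70.3 with BAQ12O. All groups overlapped with vehicle, and the Lys05 libraries alone spanned 59.4 to 101. The estimates ran from -0.10 with BAQ12O to 0.09 with BAQ12 and BAQ13 (SE 0.18). COG8, which runs opposite to VPS4A and shares 22.0% of its exonic bases, had 46.5 to 80.3 normalised reads and was not called with any compound. AC026464.4, on the same strand as VPS4A, shares 21.0% of its exonic bases. It was at 0 in all libraries, with the limit given for RNF103-CHMP3.

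The contribution of BAQ12 replicate 3 was largest for CHMP2A, PDCD6IP and VPS4A. Without it, the log2 fold change of BAQ12 against vehicle went from 0.09 to -0.06 for VPS4A, and CHMP2A and PDCD6IP shifted as given above. CHMP2A and PDCD6IP changed by more than their standard errors with all libraries, and the other genes, VPS4A among them, by less. LGALS3 went from 0.17 to 0.15 and VPS4B from -0.0049 to 0.010.

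**Figure D3:**
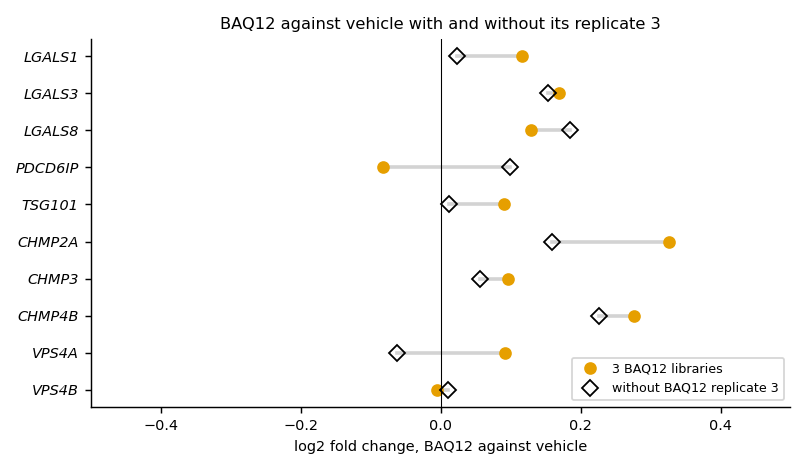
Log2 fold change of BAQ12 against vehicle (x axis) for the 10 genes with all 3 BAQ12 libraries (filled circles) and without replicate 3 (open diamonds). PDCD6IP, VPS4A and VPS4B cross 0, VPS4B by a small step, and CHMP2A moves from 0.33 to 0.16.

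The compounds were compared with each other at the same dose and time in 6 pairs. None of the 60 differences passed an adjusted p-value of 0.05 (limma, over all genes tested in each pair), and 5 had an unadjusted p under 0.05. edgeR and DESeq2 also called 0. All 60 intervals of the difference lay within 2-fold, with bounds from 0.632-fold to 1.46-fold. The background called was 0.162% for BAQ12 against Lys05, 2.66% for BAQ13 against Lys05, 0.248% for BAQ12O against Lys05, 0.562% for BAQ13 against BAQ12, 0.229% for BAQ12O against BAQ12 and 1.39% for BAQ12O against BAQ13. At an unadjusted p under 0.05 the count was 1 for BAQ13 against Lys05 (beside 14.6% of the genes tested), 2 for BAQ12O against BAQ12 (8.38%), 2 for BAQ12O against BAQ13 (11.2%) and 0 in the remaining pairs (7.17%, 7.36% and 8.27%, in the order above). The share of the genes tested with an interval within 2-fold was 83.3%, 81.7%, 85%, 85.3%, 84.2% and 83.3% in the 6 pairs in that order. These intervals limit the size of a difference and do not show that the compounds act alike.

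**Figure D4:**
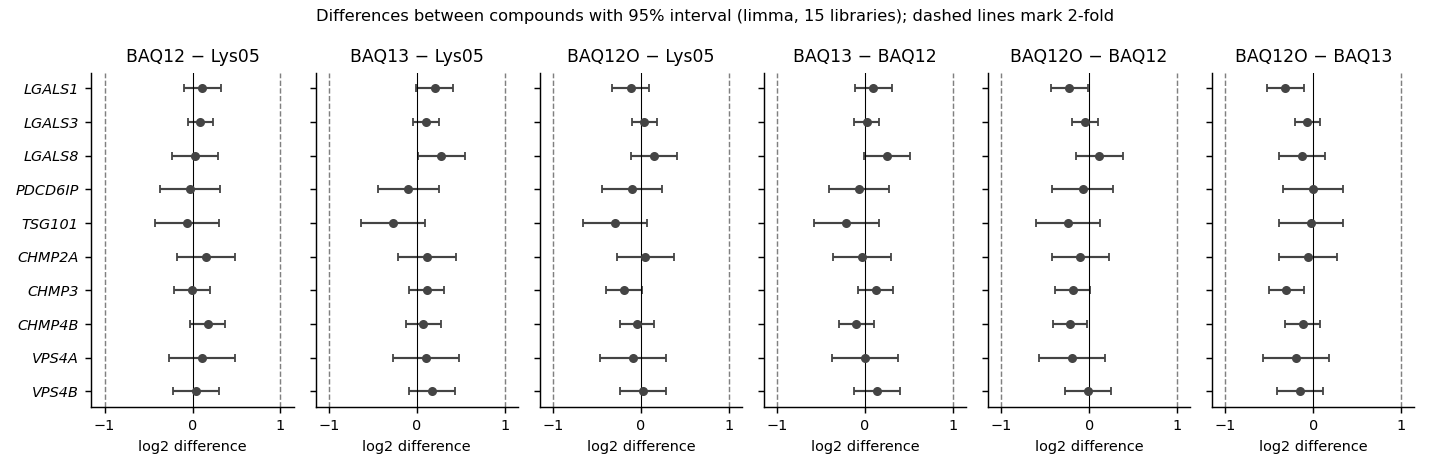
Log2 difference (x axis) between pairs of compounds for the 10 genes; points are limma estimates, bars are 95% intervals and dashed lines mark 2-fold. In BAQ12O against BAQ13 all 10 estimates are below 0 (7 of 10 with array weights), and those of LGALS1 and CHMP3 are -0.32 and -0.31. In BAQ12O against BAQ12, 9 of the 10 are below 0.

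All 10 genes had a lower estimate with BAQ12O than with BAQ13, with a median of -0.13 beside 0.00 for all genes tested. The count was 7 of 10 with array weights and without BAQ12O replicate 1, and 8 of 10 without BAQ13 replicate 1 or BAQ13 replicate 3, with PDCD6IP, TSG101 or CHMP2A above 0. The median without BAQ13 replicate 1 was -0.069, and without BAQ12O replicate 1 it was -0.067. LGALS1 was 617 ± 62.9 with BAQ12O and 768 ± 48.9 with BAQ13 (SD, n = 3 each), a log2 difference of -0.32 with an adjusted p-value of 0.17 (limma). CHMP3 was 222 ± 11.7 and 274 ± 2.89, a difference of -0.31 with an adjusted p-value of 0.17. The libraries of LGALS1, CHMP3 and VPS4A did not overlap between these groups, where 9.32% of the genes tested were lower without overlap. Between BAQ13 and Lys05, LGALS1, LGALS3, LGALS8 and CHMP3 were higher with BAQ13 without overlap, beside 12.3% of the genes tested, and the difference for LGALS8 was 0.28 with an adjusted p-value of 0.3. Between BAQ12 and BAQ12O, 9 of the 10 estimates were also lower with BAQ12O, with a median of -0.14 beside 0.00 for all genes tested. Both pairs share the BAQ12O libraries. In this pair LGALS8 was the gene with a higher estimate, and with array weights VPS4A and VPS4B were above 0 instead. LGALS1 and CHMP4B had estimates of -0.23 and -0.22 for BAQ12O against BAQ12, with adjusted p-values of 0.56 and 0.54 (limma).

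Over all 5 groups at once, 0 of the 10 genes differed (limma F test), where 3.03% of the genes tested did. The smallest adjusted p-value was 0.33, for LGALS1 and CHMP3. The order of the group means put BAQ13 highest for LGALS1, LGALS3, LGALS8, CHMP3 and VPS4B, and BAQ12 highest for CHMP2A, CHMP4B and VPS4A. Without BAQ12 replicate 3, the estimates of BAQ12 for CHMP2A and VPS4A (0.16 and -0.06) were below those of BAQ13 (0.29 and 0.09). BAQ12O was lowest for LGALS1, PDCD6IP, TSG101, CHMP3 and VPS4A, and vehicle was lowest for LGALS3, LGALS8, CHMP2A and CHMP4B. The highest mean exceeded the lowest by 1.12-fold for PDCD6IP up to 1.31-fold for LGALS8, and no pair of groups was called for any of these genes.

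The wider response to lysosome damage was read in 10 lists of 67 other genes, of which 56 were tested. Called genes numbered 0 with Lys05, 2 higher with BAQ12, 3 higher and 1 lower with BAQ13, and 2 higher and 1 lower with BAQ12O. The share of the genes tested that was called higher was 0.572% with BAQ12, 3.58% with BAQ13 and 0.934% with BAQ12O, and the share called lower was 2.19% with BAQ13 and 0.543% with BAQ12O. Both genes called with BAQ12 and 2 of the 3 higher genes with BAQ13 were receptors of lysophagy. The lists of ESCRT-0 (3 genes tested), the other ESCRT-I subunits (8), ESCRT-II (3), partners of VPS4 and ALIX (6), lysosomal phosphoinositide repair (6), and the ubiquitin and extraction factors of lysophagy (10) held 0 called genes with any compound. Of the 10 other galectin and galectin-related genes only 2 were expressed enough to be tested, and neither was called. The median log2 fold change of the 56 genes was 0.04 with Lys05, 0.12 with BAQ12, 0.11 with BAQ13 and -0.01 with BAQ12O.

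**Figure D5:**
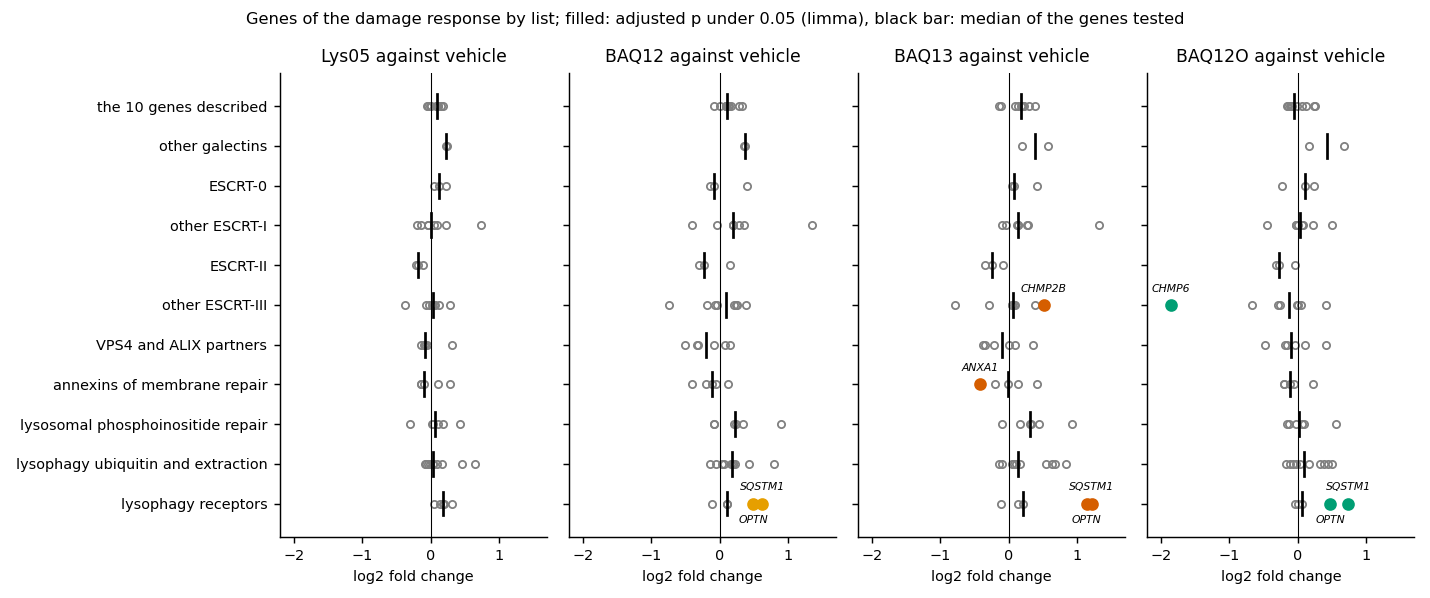
Log2 fold change against vehicle (x axis) of the genes tested in each list, with 1 panel per compound; filled points have an adjusted p-value under 0.05 (limma), open points do not, and black bars are list medians. SQSTM1 and OPTN are filled in all 3 BAQ panels, and the 10 genes described here are open throughout.

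SQSTM1 encodes p62, a receptor that links ubiquitin on damaged lysosomes to the autophagosome. It had 282, 309 and 312 normalised reads with vehicle, 333, 345 and 349 with Lys05, 399, 430 and 578 with BAQ12, 720, 660 and 710 with BAQ13, and 489, 543 and 474 with BAQ12O. The 3 BAQ groups were above vehicle and above Lys05 without overlap. The Lys05 libraries were also above vehicle without overlap, as were those of 8.24% of the genes tested. SQSTM1 was not called with Lys05. SQSTM1 rose with BAQ13 by a log2 fold change of 1.21 ± 0.11 (SE; adjusted p-value 1.3e-06, limma), with BAQ12O by 0.73 (adjusted p-value 0.0016) and with BAQ12 by 0.62 (adjusted p-value 0.0066). With BAQ12, the call of SQSTM1 was lost when only the 2 groups were fitted (adjusted p-value 0.31) and without vehicle replicate 1 (adjusted p-value 0.058). SQSTM1 was also higher with BAQ13 than with BAQ12 (0.59, adjusted p-value 0.016).

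OPTN, another ubiquitin-binding autophagy receptor, had 164, 146 and 151 normalised reads with vehicle, 198, 175 and 197 with Lys05, 221, 204 and 221 with BAQ12, 370.5, 333 and 315 with BAQ13, and 190, 205 and 248 with BAQ12O. All treated groups, Lys05 among them, were above vehicle without overlap, and OPTN was not called with Lys05. OPTN rose with BAQ13 by 1.14 ± 0.11 on the log2 scale (SE, adjusted p-value 2.1e-06, limma). With BAQ12 and BAQ12O its log2 fold changes were 0.48 and 0.47, with adjusted p-values of 0.039 and 0.035. Those 2 calls of OPTN were lost without any 1 of the 3 vehicle libraries, where the adjusted p-values were 0.073 to 0.22 with BAQ12 and 0.072 to 0.17 with BAQ12O, and also when several libraries of other groups were left out.

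CHMP2B, a paralogue of CHMP2A, was the ESCRT-III gene called higher with BAQ13 (limma, 15 libraries). It had 115, 116 and 110 normalised reads with vehicle, 113, 121 and 113 with Lys05, 126, 133 and 149 with BAQ12, 179, 153 and 155 with BAQ13, and 109, 110 and 121 with BAQ12O. The log2 fold change with BAQ13 was 0.51 ± 0.11 (SE), with an adjusted p-value of 0.0073 (limma), and without BAQ13 replicate 1 it was 0.44 with an adjusted p-value of 0.05. CHMP2B was also higher with BAQ13 than with Lys05 (0.49, adjusted p-value 0.017) and lower with BAQ12O than with BAQ13 (-0.51, adjusted p-value 0.019). For CHMP2A the log2 fold change with BAQ13 was 0.29 and was not called, and the difference between CHMP2A and CHMP2B was not tested. CHMP3 and CHMP4B also had estimates above 0 with BAQ13 (0.22 and 0.18), as did 6 of the 8 genes tested in the list of CHMP2B. With array weights, CHMP3 and CHMP4B were called with BAQ13 (adjusted p-values 0.042 and 0.036, limma), beside 22.2% of the genes tested.

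CHMP6, which links ESCRT-II to ESCRT-III, was close to the limit of detection. It had 14, 7 and 6 reads in the vehicle libraries and 1, 1 and 2 reads in the BAQ12O libraries. It was called lower with BAQ12O (adjusted p-value 0.022, limma), and the pooled reads of 4 against 27, corrected for depth, gave a ratio of 0.175 with an exact 95% interval of 0.0445 to 0.502 that covers counting error only. The call of CHMP6 was lost with a pseudocount of 5 (adjusted p-value 0.063), without a filter on low counts (0.088) and without vehicle replicate 1 (0.14), vehicle replicate 2 (0.092), BAQ12O replicate 1 (0.1) or BAQ12O replicate 2 (0.11), and DESeq2 gave no adjusted p-value.

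ANXA1, an annexin that binds damaged membranes in the presence of calcium, fell with BAQ13. It had 2561, 2618 and 2608 normalised reads with vehicle, 2262, 2446 and 2318 with Lys05, 2057, 2161 and 2567 with BAQ12, 2080, 1878 and 1850 with BAQ13, and 2127, 2094 and 2600 with BAQ12O. The Lys05 and BAQ13 libraries were below vehicle without overlap, beside 7.37% and 14.4% of the genes tested, and BAQ12 and BAQ12O overlapped with it. The log2 fold change of ANXA1 with BAQ13 was -0.42 ± 0.09 (SE), with an adjusted p-value of 0.0097 (limma). ANXA1 was not called with the other compounds. The other 4 annexins of this list were not called.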

How the data were processed

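Total RNA of MIA PaCa-2 cells was sequenced in 15 libraries. In each deposited file the authors gave a normalised signal for every gene, made by scaling its reads with the size factor of that library. The submitters' processing notes name STAR, HTSeq, DESeq2 and GRCh38 (hg38) without versions. The methods and the labels name different library kits (stranded and paired-end, or 3′ mRNA), so no level was compared between genes. All non-zero values were whole multiples of 1 step per library (tolerance 0.01 reads), and the reads were recovered from them.

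On the recovered reads, edgeR's filterByExpr (minimum count 10, minimum total 15) kept 10495 genes. limma with a variance trend was fitted to log2(value + 1) over all 15 libraries without covariates, and p-values were adjusted by the Benjamini-Hochberg method over these genes. A fold change is therefore on the log2(value + 1) scale. Groups were taken from the sample labels, and the 4 compounds were compared with vehicle and with each other. The genes and lists were chosen with earlier results of these data known. Named genes are the 10 members and every gene of the wider lists with an adjusted p-value under 0.05 against vehicle. Genes outside these are markers or share exonic bases with a member, and HEATR1, COG8 and AC026464.4 were chosen after their values were seen.

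Alternatives were edgeR, DESeq2, TMM factors, pseudocounts of 0.1 and 5, no filter or at least 10 reads in every library, only the 2 groups compared, the replicate number as a block, array weights and leaving out each library. Leaving out BAQ12 replicate 3 together with BAQ13 replicate 1 was added after seeing the data. The limma script was tested on simulated data that held no outlying library. Recovery was required only of changes larger than any seen for the 10 genes. That test therefore does not bear on small differences that were not called. Gene positions are from GENCODE release 29 (GRCh38), which held 56531 of the 60107 identifiers. limma 3.58.1, edgeR 4.0.16 and DESeq2 1.42.0 were run in R 4.3.3, and other steps in Python 3.11.15 with matplotlib 3.10.9.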

Additional observations from a re-analysis of the deposited data

How the results depend on the processing

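With edgeR, DESeq2, TMM factors, the other pseudocounts and filters, only the 2 groups compared and the replicate block, 0 of the 10 genes was called in each of the 10 comparisons and over the 5 groups, and all 40 intervals against vehicle stayed within 2-fold in every limma setting and in DESeq2. Array weights, which gave BAQ12 replicate 3 a weight of 0.125 and BAQ12 replicate 2 a weight of 3.97, moved the counts. The genes called were then 2 with BAQ12 (LGALS3 and CHMP4B, beside 5.96% of the genes tested), 5 with BAQ13 (LGALS1, LGALS3, LGALS8, CHMP3 and CHMP4B, beside 22.2%), 1 for BAQ13 against Lys05 (LGALS1, beside 14%), 3 for BAQ13 against BAQ12 (LGALS1, PDCD6IP and TSG101, beside 17.2%), 2 for BAQ12O against BAQ13 (LGALS1 and CHMP3, beside 8.65%) and 5 over all groups (LGALS1, LGALS8, TSG101, CHMP3 and CHMP4B, beside 25.8%). Leaving out 1 library gave 0 to 1 called genes with BAQ13 against vehicle (LGALS8, without BAQ12 replicate 3) and 0 to 1 for BAQ12O against BAQ13 (LGALS1, without the same library, beside 3.65%), and 0 in every other comparison. Without BAQ12 replicate 3 and BAQ13 replicate 1 the counts were 2 with BAQ13, 1 for BAQ12O against BAQ13 and 1 over all groups, LGALS1 in both of the latter (beside 5.02% and 12.7%). The cause was not tested.

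The changes of direction against vehicle were among estimates that were not called, and those of BAQ12O against BAQ13 are given with that pair. LGALS1 with Lys05 was -0.0017 with TMM factors, and with BAQ12 it was -0.032 with array weights. PDCD6IP with BAQ12 was 0.051 with array weights, and VPS4A with BAQ12 was -0.092. VPS4A with Lys05 was 0.014 with edgeR and 0.013 with DESeq2, and VPS4B with BAQ12 was 0.0020 with edgeR. Without BAQ12 replicate 3 and BAQ13 replicate 1, PDCD6IP, VPS4A and VPS4B with BAQ12 were 0.099, -0.063 and 0.010, and VPS4A with BAQ13 was -0.015. Leaving out 1 library moved LGALS1 with Lys05 from -0.039 to 0.054, PDCD6IP from -0.17 to 0.0090 with Lys05 and from -0.20 to 0.099 with BAQ12, and TSG101 with BAQ12 from -0.032 to 0.29. It moved CHMP4B with BAQ12O from -0.033 to 0.11, and VPS4A from -0.18 to 0.20 with Lys05, from -0.063 to 0.20 with BAQ12 and from -0.015 to 0.15 with BAQ13. VPS4B ranged from -0.14 to 0.022 with Lys05, from -0.061 to 0.036 with BAQ12 and from -0.099 to 0.11 with BAQ12O.

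Same-numbered libraries did not deviate together (correlations of -0.49 to 0.20), so the replicate numbers were not taken as pairs. Some libraries of different number did. The correlation was 0.57 between BAQ13 replicate 1 and BAQ12 replicate 3. Between BAQ13 replicate 3 and BAQ12 replicates 1 and 2 it was 0.42 and 0.35. Deviations were taken from each group's mean, so these values are not independent, and their cause was not tested. With the replicate block, 0 of the 10 genes was called and 512 of all genes tested were called with BAQ13. In this balanced design the block leaves each fold change as it is (0.38 for LGALS8 with BAQ13) and alters its error only. The calls of OPTN were lost with this block with BAQ12 and BAQ12O (adjusted p-values 0.067 and 0.057) and without a filter on low counts (0.063 and 0.062), and with BAQ12 when only the 2 groups were fitted (0.3). The standard errors of the 10 genes had a median of 0.12 on the log2 scale, beside 0.20 for all genes tested.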
